A study of Mus musculus with 60 samples.

Results

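Mid-colon RNA of mice with collagen-induced arthritis (CIA) was compared between an early light time, ZT4, and an early dark time, ZT16, across all genes. Members were the columns of the colon count table whose labels give the treatment CIA and the time ZT4 or ZT16, which are 10 of the 60 libraries of the series, 5 at each time. ZT, zeitgeber time, counts hours from lights on. All 10 mice were male DBA/1, immunised at 9 to 10 weeks of age with bovine type II collagen in Complete Freund's adjuvant and boosted with the same collagen on day 21, and colon was taken 7 days after symptoms of arthritis appeared. Each mouse gave 1 library from a 5 mm piece of whole wall, which holds epithelium, lamina propria, muscle and nerve. The groups therefore share strain, sex, immunisation and the interval from symptoms to collection, and differ by label in the hour of collection. The day of onset and the severity of arthritis in each mouse are not given in the sources used here. Whether they were alike in the groups is not known. No naïve library entered, so nothing here separates a daily difference of arthritic mice from one that healthy mice also have. Different mice were sampled at the 2 times, food was always available, and time of day, feeding and activity cannot be told apart in this design.

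Nearly every cell of the gut wall holds a circadian clock. Arntl (Bmal1) pairs with Clock or Npas2 and switches on the Per and Cry genes, whose proteins then shut their own transcription down. A second loop couples the clock to the nuclear receptors Nr1d1 (REV-ERBα), which represses Arntl, and Rora (RORα), which activates it. PAR bZIP factors such as Dbp and Tef carry the rhythm on to output genes. In the intestine, cell division, lipid metabolism, protein folding and defence against microbes are known to follow the hour of the day, partly through this clock and partly through the nightly feeding of mice.

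Library totals ranged from 39026384 to 51792336 counts, and log2 CPM (CPM is the count scaled to a common library size) of any 2 of the 10 libraries correlated at 0.938 to 0.986. The first principal component (35.3% of the variance) did not separate the times. On the second (20.6%), ZT4 replicates 1, 2, 3 and 5 lay at 9.31 to 39.9 and the ZT16 libraries at -49.3 to 0.27. ZT4 replicate 4 lay at -19.0, among the ZT16 libraries. Of the 10 libraries, 2 stood apart from their label by 16 clock genes, when each library was set beside the mean clock profile of every CIA time point with itself left out. ZT4 replicate 4 lay nearest to ZT0, at a Euclidean distance of 1.76 log2 units against 4.63 from the other ZT4 libraries. ZT16 replicate 1 lay nearest to ZT12, at 2.41 against 3.64 from the other ZT16 libraries. The other 8 libraries lay nearest to their own time. All 10 kept their labels, and results are also given without ZT4 replicate 4. The core clock genes described below were themselves used to set these libraries apart. Their extreme values there, and how their changes shift when such a library is left out, follow in part from that choice and are no separate evidence.

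The comparison asked which colonic transcripts of arthritic mice differed between early light and early dark. Of 16792 genes tested, 515 (3.07%) were higher at ZT4 and 511 (3.04%) were higher at ZT16, in all 1026 genes or 6.11%, at an adjusted p under 0.05 in edgeR's quasi-likelihood test. Fold changes throughout are log2 of ZT4 over ZT16 with their standard error (SE), positive where ZT4 was higher, with n = 5 mice per time unless a library is left out. The median change of all tested genes was 0.013, and that of the absolute change among the called genes was 0.53. More of the large changes lay on the ZT4 side, where 166 called genes differed by over 2-fold, against 39 on the ZT16 side. All 5 ZT4 libraries lay above all 5 ZT16 libraries for 721 genes (4.29%), and all 5 ZT16 libraries lay above all 5 ZT4 libraries for 758 genes (4.51%). With library size as the only scaling, which moved the median of all genes to 0.05, 652 genes were higher at ZT4 and 384 at ZT16, so that 62.9% of the calls were on the ZT4 side in place of 50.2%.

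Without ZT4 replicate 4, 447 genes (2.64%) were higher at ZT4 and 576 (3.40%) were higher at ZT16 of 16932 tested. The fits shared 809 calls of the same direction, which is 78.8% of the calls with all 10 libraries and 79.1% of those without it, and no gene was called in opposite directions. Of the genes called only without it, 159 were higher at ZT16 and 55 at ZT4. Each library was also left out in turn. All 1026 calls kept their sign in all 10 of these fits, but only 375 (204 higher at ZT4 and 171 higher at ZT16) passed the threshold in every one. These fits share most libraries with the fit that chose the calls, so a kept sign says little. Counts of calls moved by over 1.5 times without ZT4 replicates 1 (265 higher at ZT4 and 197 higher at ZT16), 2 (386 and 335) or 5 (275 and 231). They did so too without ZT16 replicates 1 (333 and 359), 2 (230 and 219), 3 (306 and 326), 4 (296 and 230) or 5 (400 and 267). For a named gene, the number of these 10 fits in which its call held is therefore given where it was below 10.

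**Figure D1:**
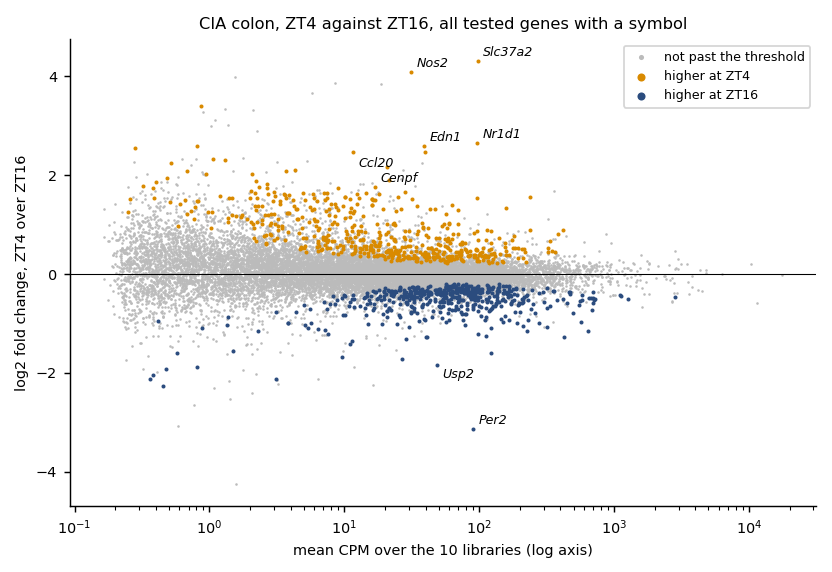
Each point is a tested gene with a symbol, placed by its mean CPM over the 10 libraries (log axis) and its log2 fold change of ZT4 over ZT16; coloured points are the genes past the threshold. Slc37a2 (4.32) and Nos2 (4.1) lie highest, and Per2 (-3.14) lies lowest among the named genes.

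Clock repressors were higher in early dark. Per2 (Entrez 18627, chr1:91415977-91459351 in GRCm38), a core repressor whose RNA is known to peak around the evening, had 13.2, 12.6, 29.2, 16.8 and 19.6 CPM at ZT4 and 144, 163, 149, 145 and 202 CPM at ZT16, in the order of replicates 1 to 5 that is kept below. Its groups were far apart, with every ZT16 library at least several times any ZT4 library, and the change was -3.14 ± 0.22, or 8.79-fold higher at ZT16 (adjusted p = 0.00024). Without ZT4 replicate 4 it was -3.11 ± 0.25 (adjusted p = 0.00171). Per3, a Per gene that is less needed for rhythm, had 20.6, 28.2, 28.2, 15.8 and 26.9 CPM at ZT4 and 78.2, 43.6, 55.9, 48.1 and 64 CPM at ZT16. These groups did not overlap either, and ZT16 replicate 1, one of the libraries off its label, was the highest (log2 fold change -1.27 ± 0.20, adjusted p = 0.00633).

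Cry2, which encodes a cryptochrome repressor, had 49.2, 44.5, 64.6, 41.7 and 60.4 CPM at ZT4 and 94.7, 89.6, 80.8, 118 and 115 CPM at ZT16 and did not overlap (log2 fold change -0.94 ± 0.14, adjusted p = 0.0062). Its partner Cry1, whose RNA is known to lag the Per genes, had 19.2, 10.3, 18.5, 48.7 and 21.8 CPM at ZT4 and 39.2, 60.9, 55.5, 65.4 and 63.9 CPM at ZT16. Here ZT4 replicate 4 was more than double any other ZT4 library and lay above ZT16 replicate 1. With it the change of Cry1 was -1.27 ± 0.34 and just passed the threshold (adjusted p = 0.0498), and without it the change was -1.71 ± 0.22 (adjusted p = 0.00824). The call was lost in the 9 fits that left out another library (adjusted p up to 0.123). Bhlhe40 (DEC1), a repressor of E-box genes, was 1.58-fold higher at ZT16 (log2 fold change -0.66 ± 0.15, adjusted p = 0.0311), a call that held in 3 of 10 fits and was lost without ZT4 replicate 4 (adjusted p = 0.0552). Per1, the Per gene that also answers acute signals, did not pass the test, with 28.5, 28.1, 81.8, 42.5 and 67.2 CPM at ZT4 and 73.2, 61.6, 51.3, 81.7 and 58.1 CPM at ZT16. Its ZT4 libraries spread from 28.1 to 81.8 CPM, across the whole range of the ZT16 libraries. Ciart and Bhlhe41, 2 further repressors at under 12 CPM in every library, did not pass (adjusted p = 0.101 and 0.612). In all, 5 of 8 tested core repressors were higher at ZT16 and none at ZT4, and 4 of 8 were without ZT4 replicate 4.

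Of 4 tested activators, 1 passed the test, higher at ZT4. Npas2, the partner that can stand in for Clock, had 49.1, 59.5, 43.9, 69.4 and 50.9 CPM at ZT4 and 22.2, 25.4, 19.4, 34.8 and 41.2 CPM at ZT16, with no overlap, and was 1.91-fold higher at ZT4 (log2 fold change 0.94 ± 0.21, adjusted p = 0.0263, called in 6 of 10 fits). Arntl had 41, 38.5, 28.9, 71.1 and 40.7 CPM at ZT4 and 9.87, 27.5, 21.1, 25.7 and 27.2 CPM at ZT16. Every ZT4 library was above every ZT16 library, yet the values were widely spread, with both off-label libraries at the ends, and the difference did not pass the test (log2 fold change 0.98 ± 0.29, adjusted p = 0.071). Without ZT4 replicate 4 it was 0.75 ± 0.26 (adjusted p = 0.115). Clock itself lay between 57.9 and 78.1 CPM in all 10 libraries (log2 fold change 0.09 ± 0.09, adjusted p = 0.617), and Arntl2 at 0.81 to 1.98 CPM did not pass either (adjusted p = 0.569).

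In the nuclear receptor loop, Nr1d1 (Entrez 217166, chr11:98767932-98775377) had 171, 235, 206, 54.8 and 160 CPM at ZT4 and 56.9, 12.9, 25.7, 16.2 and 20.8 CPM at ZT16. The 4 ZT4 libraries on label were at 160 CPM or more, whereas ZT4 replicate 4 was level with ZT16 replicate 1. The gene was 6.27-fold higher at ZT4 (log2 fold change 2.65 ± 0.46, adjusted p = 0.0102), and the change was 2.87 ± 0.39 (adjusted p = 0.00868) without ZT4 replicate 4. Nr1d1 overlaps Thra on the genome, and Thra, named after its values were seen, was also higher at ZT4 (log2 fold change 0.63 ± 0.12, adjusted p = 0.015). The strand setting of the counting is not given in the sources used here, so part of either signal could be shared. The same holds for Clock, Per3, Cry2, Ciart, Bhlhe40, Rora, Dbp, Tk1, Fancd2, Hspa8, Preb, Lss, Scd2, Nfkb2, Cxcl10, Errfi1 and Vil1, whose spans also overlap another annotated gene, as do those of 4 genes whose overlap is given beside their values (Nusap1, Srebf1, Slc16a3 and Bco2). Nr1d2 (-0.04), Rora (-0.13, all libraries at or under 1.01 CPM) and Nfil3 (-0.33) had values on both sides and did not pass. The direction of Nr1d2 and Rora turned without ZT4 replicate 4 (0.15 and 0.06).

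Of the PAR bZIP output factors, Tef had 61.4, 59.2, 110, 25.9 and 72.6 CPM at ZT4 and 216, 124, 153, 134 and 164 CPM at ZT16 with no overlap, and was 2.4-fold higher at ZT16 (log2 fold change -1.26 ± 0.30, adjusted p = 0.0352), held in 2 of 10 fits. Its lowest and highest libraries were ZT4 replicate 4 and ZT16 replicate 1. Hlf went the same way without passing (log2 fold change -0.96 ± 0.39, adjusted p = 0.174). Dbp had 18.7, 13.6, 28, 3.03 and 15.1 CPM at ZT4 and 41.7, 7.95, 14.1, 8.36 and 12 CPM at ZT16. The 2 off-label libraries were its extremes, the groups otherwise lay close, and the change of -0.10 ± 0.56 (adjusted p = 0.94) turned to 0.16 without ZT4 replicate 4 and to 0.83 without both, passing in none of these fits.

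**Figure D2:**
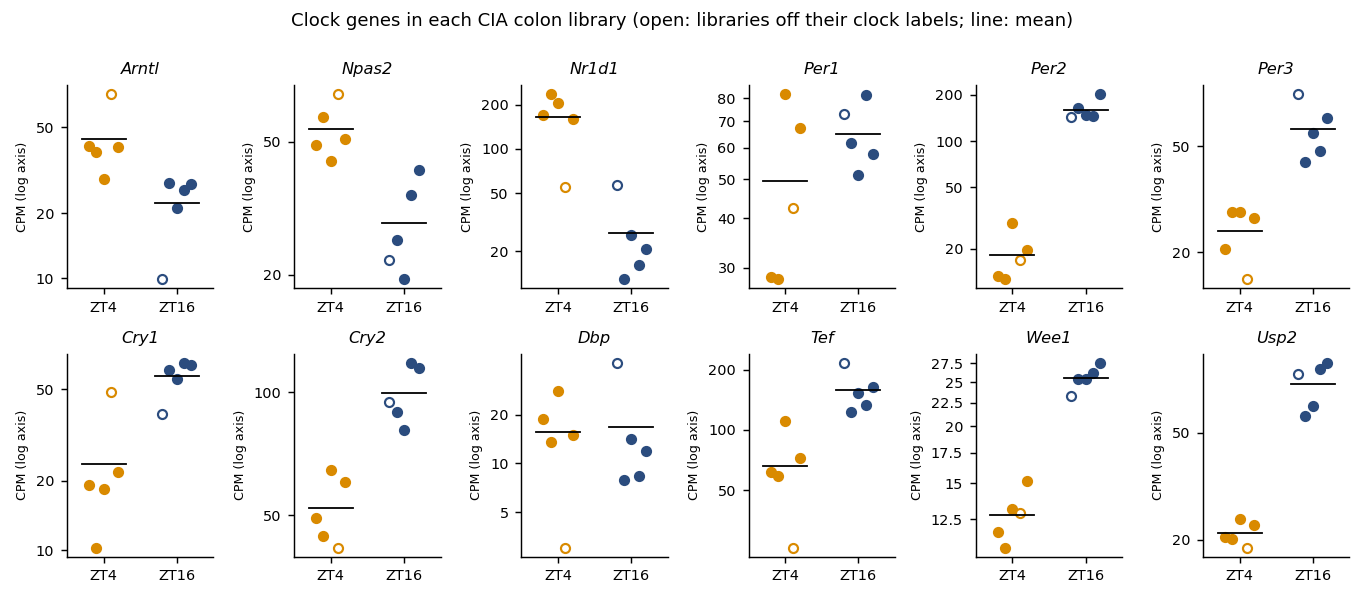
CPM (log axis) of 12 clock and clock output genes in the 5 ZT4 and 5 ZT16 libraries; each point is 1 mouse, open points are ZT4 replicate 4 and ZT16 replicate 1, and lines are group means. Per2, Per3, Cry2, Wee1, Usp2, Arntl, Npas2 and Tef show no overlap between the times, and the open points set the extremes of Arntl, Dbp and Tef.

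Genes that the clock is known to drive are listed with 16 tested clock-controlled regulators, of which 6 were higher at ZT16 and 1 at ZT4 (4 and 1 without ZT4 replicate 4). Usp2, a deubiquitinase that acts on clock proteins, shared the smallest adjusted p of all genes with Per2 and had 20.5, 20.1, 23.9, 18.7 and 22.7 CPM at ZT4 and 82.9, 57.7, 63.1, 86.2 and 91.2 CPM at ZT16. Its ZT4 values lay within 18.7 to 23.9 CPM and none approached the ZT16 range (3.6-fold, log2 fold change -1.85 ± 0.14, adjusted p = 0.00024). Wee1, the kinase that holds cells before mitosis, had 11.7, 10.8, 13.1, 12.9 and 15.1 CPM at ZT4 and 23.3, 25.4, 25.4, 26.2 and 27.6 CPM at ZT16, a doubling with little spread in either group (log2 fold change -1.0 ± 0.10, adjusted p = 0.00144). Klf10, a Krüppel-like repressor, was 1.37-fold higher at ZT16 (log2 fold change -0.45 ± 0.06, adjusted p = 0.00415). Por, the electron donor of microsomal P450 enzymes, was 1.5-fold higher at ZT16 (log2 fold change -0.59 ± 0.09, adjusted p = 0.00721). All 4 held in every fit that left a library out.

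Promoter sequence of 4 called clock genes is shown so that the letters recognised by clock factors can be seen in place. Each run is the 250 bases before the RefSeq transcription start in GRCm38.p6, written along the gene's strand, with capitals marking every copy of the E-box CACGTG (bound by Arntl with Clock or Npas2), its variant CACGTT read on either strand, and the D-box TTATGTAA (bound by Dbp, Tef, Hlf and Nfil3). The genes are those of the clock lists with the largest changes whose window held a motif, 1 higher at ZT4 and 3 at ZT16. Per2 and Bhlhe40 have no window in the table used.
Nr1d1, chr11:98775378-98775627, minus strand: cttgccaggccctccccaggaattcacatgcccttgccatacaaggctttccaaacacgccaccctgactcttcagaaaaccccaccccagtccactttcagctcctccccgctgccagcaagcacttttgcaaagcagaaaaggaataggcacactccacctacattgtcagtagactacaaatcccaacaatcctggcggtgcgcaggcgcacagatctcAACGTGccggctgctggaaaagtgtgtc
Per3, chr4:151044666-151044915, minus strand: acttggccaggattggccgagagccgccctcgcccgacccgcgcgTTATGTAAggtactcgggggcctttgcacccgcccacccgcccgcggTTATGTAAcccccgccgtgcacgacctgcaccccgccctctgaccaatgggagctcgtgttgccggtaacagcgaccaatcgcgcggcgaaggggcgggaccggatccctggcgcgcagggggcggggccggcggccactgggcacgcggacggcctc
Cry1, chr10:85185055-85185304, minus strand: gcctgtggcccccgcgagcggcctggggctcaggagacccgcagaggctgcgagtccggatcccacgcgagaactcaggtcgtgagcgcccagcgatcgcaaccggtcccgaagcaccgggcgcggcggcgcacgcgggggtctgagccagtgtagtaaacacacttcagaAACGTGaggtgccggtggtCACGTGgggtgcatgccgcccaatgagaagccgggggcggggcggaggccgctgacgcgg
Tef, chr15:81802423-81802672, plus strand: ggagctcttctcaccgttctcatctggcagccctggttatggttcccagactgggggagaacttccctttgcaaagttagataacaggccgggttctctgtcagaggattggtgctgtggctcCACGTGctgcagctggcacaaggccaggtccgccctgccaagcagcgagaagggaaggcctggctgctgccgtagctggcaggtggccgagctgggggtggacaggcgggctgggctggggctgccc

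Nr1d1 carried 1 E-box variant, which began at position -28 relative to the start. Per3 carried 2 D-boxes, beginning at -205 and -158, and no E-box. Cry1 carried an E-box at -60 and a variant at -79. Tef has 2 windows with 2 E-box matches over both, and the first window with a match is shown, its E-box at -127. Windows of 250 bases before to 50 after the start held an E-box for 13.6% of the 412 genes higher at ZT16 that have a window, 7.79% of the 411 higher at ZT4, 9.51% of the 11826 tested genes that did not pass and 7.24% of all 27025 promoters in the table. D-boxes were rarer, at 1.70%, 0.243%, 0.575% and 0.955% in the same order. The cyclic AMP element TGACGTCA was in 4.61%, 2.19%, 2.99% and 1.88%, and the REV-ERB and ROR element TAGGTCA in 2.18%, 2.68%, 2.00% and 2.64%, both strands being searched and the first window of a gene counted. These shares describe letters in windows and were not tested.

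Mitotic genes were higher in early light. Of 67 tested genes of chromosome segregation and cell division, 55 were higher at ZT4 and none at ZT16, the median change was 1.3 (2.47-fold), and all 67 changes were positive. All 5 ZT4 libraries were above all 5 ZT16 libraries for 46 of them, beside 4.29% of all tested genes. Without ZT4 replicate 4, 47 were higher at ZT4 with a median of 1.23, and over all fits that left out a library the count ran from 43 to 58. By library, the mean log2 CPM of the list was 4.16, 3.48, 3.31, 4.02 and 3.89 at ZT4 and 2.76, 2.34, 2.93, 2.72 and 2.34 at ZT16. The lowest ZT4 library thus lay above the highest ZT16 library. Fewer cells of a type and less RNA per cell cannot be told apart in these bulk samples.

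Cenpe (Entrez 229841, chr3:135212563-135273540), the kinetochore motor that brings chromosomes to the spindle equator, had 17.9, 13, 11.2, 16.4 and 17.5 CPM at ZT4 and 6.05, 4.66, 5.62, 5.05 and 4.51 CPM at ZT16, 2.94-fold higher at ZT4 (log2 fold change 1.56 ± 0.16, adjusted p = 0.0017). Birc5 (survivin), of the chromosomal passenger complex, had 59.5, 42, 43.8, 46.9 and 41.8 CPM at ZT4 and 18.2, 12.7, 19.2, 19.8 and 11.6 CPM at ZT16 (log2 fold change 1.52 ± 0.17, adjusted p = 0.00269). Neither gene's groups came near to each other. Cenpf, a kinetochore protein of late G2 and M phase, showed the largest change of the list, with 34.7, 21.3, 18.5, 27 and 28 CPM at ZT4 and 9.8, 4.93, 8.65, 8.94 and 5.88 CPM at ZT16 (log2 fold change 1.76 ± 0.22, adjusted p = 0.00387). Ccnb2 (1.65 ± 0.23), a mitotic cyclin, Ube2c (1.56 ± 0.20), which loads ubiquitin for the anaphase-promoting complex, the spindle kinase gene Nek2 (1.52 ± 0.19), and the spindle genes Nusap1 (1.63 ± 0.24) and Ckap2l (1.56 ± 0.20) had adjusted p between 0.00387 and 0.00515. Each of these 8 calls held in all 10 fits. Nusap1 overlaps the mitotic gene Oip5 on the genome.

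DNA replication genes were called about as often as all genes. Of 48 tested DNA replication genes, 3 were higher at ZT4 and 1 at ZT16 with a median of 0.055. Gins4, of the replicative helicase, was 1.3-fold higher at ZT4 (log2 fold change 0.38 ± 0.07, adjusted p = 0.0143), Rnaseh2a, which removes RNA from DNA, was 1.36-fold higher (log2 fold change 0.45 ± 0.09, adjusted p = 0.015), and the thymidine kinase gene Tk1 was 1.65-fold higher (log2 fold change 0.72 ± 0.19, adjusted p = 0.045), a call that was lost without ZT4 replicate 4 (adjusted p = 0.0771) and held in 1 of 10 fits. Mcm4, another helicase subunit, was 1.44-fold higher at ZT16 (log2 fold change -0.52 ± 0.12, adjusted p = 0.0263, 4 of 10 fits). Of 25 DNA repair genes and p53 targets, 5 were higher at ZT4 and 1 at ZT16 (4 and none without ZT4 replicate 4, and 1 to 4 higher at ZT4 when each library was left out). Bbc3 (PUMA), a pro-death BH3 protein, had 11.2, 14.3, 9.94, 9.73 and 11.2 CPM at ZT4 and 5.67, 5.49, 4.86, 7.25 and 4.04 CPM at ZT16 with no overlap (log2 fold change 1.05 ± 0.18, adjusted p = 0.00861). Gtse1, a p53 regulator of the G2 phase, was 1.15 ± 0.23 (adjusted p = 0.0176, 8 of 10 fits), Fancd2 of interstrand crosslink repair was 1.05 ± 0.26 (adjusted p = 0.0389, 2 of 10 fits) and, higher at ZT16, Ercc5 of nucleotide excision repair was -0.34 ± 0.08 (adjusted p = 0.0388, 2 of 10 fits). Fancd2 and Ercc5 lost their calls without ZT4 replicate 4.

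**Figure D3:**
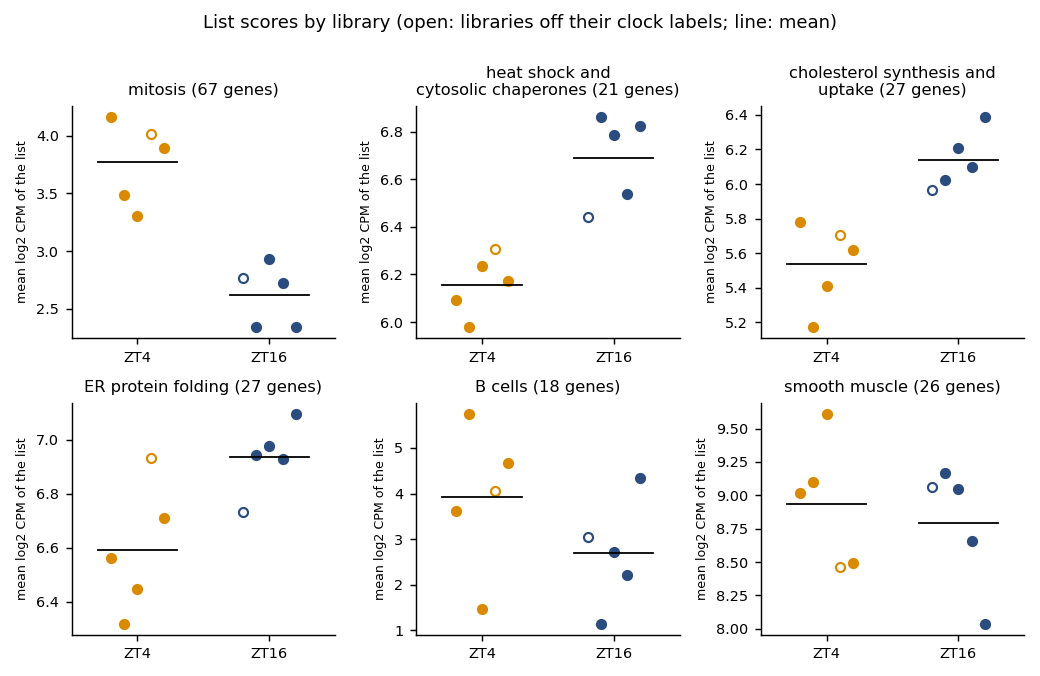
Mean log2 CPM of the tested genes of 6 lists in each library; each point is 1 mouse, open points are ZT4 replicate 4 and ZT16 replicate 1, and lines are group means. Mitosis (3.31 to 4.16 against 2.34 to 2.93), heat shock and cytosolic chaperones (5.98 to 6.31 against 6.44 to 6.86) and cholesterol genes (5.17 to 5.78 against 5.96 to 6.39) do not overlap between ZT4 and ZT16, while B cell and smooth muscle genes do.

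Chaperones of the cytosol were higher in early dark. Of 21 tested heat shock and cytosolic chaperone genes, 16 were higher at ZT16 and none at ZT4, with a median of -0.57 (1.48-fold), and 17 were without ZT4 replicate 4. The count fell to 6 without ZT4 replicate 1, to 9 without ZT16 replicate 2 and to 10 without ZT16 replicate 3, while the median stayed between -0.62 and -0.47 in the 10 fits. Over all genes, the calls higher at ZT16 fell from 511 to 197, 219 and 326 in the same 3 fits. The list's mean log2 CPM was 6.09, 5.98, 6.24, 6.31 and 6.17 at ZT4 and 6.44, 6.86, 6.79, 6.54 and 6.82 at ZT16, again with no overlap.

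Hsph1 (HSP110), which helps HSP70 release its client proteins, changed most, with 45.5, 37.6, 83.7, 76.7 and 54.1 CPM at ZT4 and 109, 197, 161, 104 and 117 CPM at ZT16 (log2 fold change -1.21 ± 0.24, adjusted p = 0.0167, 8 of 10 fits). Stip1 (HOP), the adaptor between HSP70 and HSP90, had 64.6, 58, 76.6, 77.1 and 66.6 CPM at ZT4 and 90.02, 119, 105, 104 and 130 CPM at ZT16 (log2 fold change -0.68 ± 0.11, adjusted p = 0.00655). The ZT16 values of Stip1 began at 90.0 CPM, above all ZT4 values. Fkbp4, an HSP90 co-chaperone of steroid receptors, had 174, 167, 168, 226 and 184 CPM at ZT4 and 258, 309, 265, 289 and 386 CPM at ZT16, 1.64-fold higher at ZT16 (log2 fold change -0.71 ± 0.12, adjusted p = 0.00961). Ahsa1, which stimulates the ATPase of HSP90, was 1.35-fold higher (log2 fold change -0.43 ± 0.07, adjusted p = 0.00689), and Hspa8, the constitutive HSP70 and the most abundant gene named here of this list, was 1.55-fold higher at 427 ± 44.3 CPM at ZT4 and 663 ± 91 CPM at ZT16 (log2 fold change -0.63 ± 0.11, adjusted p = 0.00989).

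The promoter of Fkbp4 is shown because it holds a heat shock element, GAANNTTC, a pair of inverted GAA units bound by HSF1. It was chosen after the values were seen, as the called list member with the next largest change after Hspa1b, which has a near-identical copy in Hspa1a, among windows with the element only before the start.
Fkbp4, chr6:128438657-128438906, minus strand: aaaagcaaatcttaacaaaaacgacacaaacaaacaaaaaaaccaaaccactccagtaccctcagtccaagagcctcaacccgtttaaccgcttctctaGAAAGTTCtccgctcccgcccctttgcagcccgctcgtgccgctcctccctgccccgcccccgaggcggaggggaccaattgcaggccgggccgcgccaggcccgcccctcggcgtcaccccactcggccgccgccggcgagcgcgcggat

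The element in capitals began at -151 in Fkbp4. It was present in 9 of the 17 heat shock and chaperone windows in the table (52.9%), against 7.95% of all promoters, 5.73% of those of tested genes, 5.58% of those of genes higher at ZT16 and 8.27% of those higher at ZT4. Among windows that lacked it were those of Stip1 and Ahsa1, and among those that held it was that of Bag3, which did not pass the test. None of the 22 windows of the ER protein folding list held it.

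Genes of folding in the endoplasmic reticulum (ER) were called on the dark side with all 10 libraries, in numbers that single libraries changed. Of 27 tested ER protein folding genes, 7 were higher at ZT16 and none at ZT4 (median -0.35), and 25 of the 27 changes were negative. ZT4 replicate 4 had the highest list mean of the ZT4 libraries, 6.93 log2 CPM against 6.32 to 6.71 in the other 4, and 14 genes passed without it. Leaving out other libraries lowered the count to 1 (ZT4 replicates 1 and 2 and ZT16 replicates 2, 3 and 5) or 2 (ZT4 replicates 3 and 5 and ZT16 replicate 4), and without ZT4 replicate 3, 1 gene was higher at ZT4. Over all genes, the calls higher at ZT16 also fell in these fits, from 511 to between 197 and 439. Hyou1, an HSP70-type chaperone of the ER, had 71, 54.3, 76.9, 112 and 83.6 CPM at ZT4 and 113, 151, 151, 147 and 163 CPM at ZT16 (log2 fold change -0.87 ± 0.16, adjusted p = 0.0138). It held in all 10 fits, and its change was -1.02 ± 0.13 (adjusted p = 0.00868) without ZT4 replicate 4, itself the highest ZT4 library. Calr and Canx, the lectin chaperones calreticulin and calnexin, were 1.49-fold and 1.27-fold higher at ZT16 (adjusted p = 0.0243 and 0.0332, 5 and 2 of 10 fits), and the co-chaperone gene Dnajb11 was 1.47-fold higher (adjusted p = 0.0331, 2 of 10 fits).

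Of 43 genes of ER translocation and export, 4 were higher at ZT16 and none at ZT4 (10 without ZT4 replicate 4, and 2 to 10 over all fits that left out a library), and 40 of the 43 changes were negative. Sar1b, the GTPase that starts the coat of export vesicles, had 25, 21.8, 25.2, 24.4 and 25.3 CPM at ZT4 and 32.6, 32.5, 32.4, 33.7 and 30.1 CPM at ZT16, an even difference of 1.32-fold (log2 fold change -0.40 ± 0.07, adjusted p = 0.00751), and Preb, its exchange factor, was 1.27-fold higher (log2 fold change -0.34 ± 0.06, adjusted p = 0.0133). The ER oxidoreductase-type gene Tusc3 of the N-glycosylation list went the other way, 1.49-fold higher at ZT4 (log2 fold change 0.58 ± 0.08, adjusted p = 0.00515), as 1 of 22 listed genes, with 1 other higher at ZT16. Of 31 proteasome subunits 2 were higher at ZT16, of 76 cytosolic ribosomal proteins none passed in either direction (75 changes were positive, median 0.14), and of 53 ribosome biogenesis genes 3 were higher at ZT4 and 4 at ZT16. These counts stand beside 3.07% of all tested genes higher at ZT4 and 3.04% higher at ZT16. Of the ribosomal proteins, 3 had an unadjusted p under 0.05 in edgeR, all higher at ZT4, and DESeq2 called 1.

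Amino acid and tRNA charging genes that passed were mostly higher at ZT16. Of 38 tested, 5 were higher at ZT16 and 1 at ZT4 (8 and 1 without ZT4 replicate 4, and 1 to 8 higher at ZT16 when each library was left out). The median of the list was -0.13, and over all tested genes 3.04% were higher at ZT16 and 3.07% at ZT4. Yars, the tyrosine tRNA synthetase, was 1.33-fold higher at ZT16 (log2 fold change -0.41 ± 0.08, adjusted p = 0.0139) and Rars 1.21-fold (log2 fold change -0.28 ± 0.06, adjusted p = 0.0200, 7 of 10 fits). Qars, the glutamine enzyme, was 1.32-fold higher at ZT4, with 143, 150, 130, 139 and 145 CPM at ZT4 and 116, 101, 101, 109 and 111 CPM at ZT16 (log2 fold change 0.40 ± 0.07, adjusted p = 0.00916).

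Cholesterol synthesis genes were higher in early dark. Of 27 tested genes of synthesis and uptake, 15 were higher at ZT16 and none at ZT4, with a median of -0.65 (1.57-fold). For 16 of them all ZT16 libraries were above all ZT4 libraries, beside 4.51% of all tested genes. The count of called genes was 15 without ZT4 replicate 4 and 12 to 16 over all fits that left out a library. The list's mean log2 CPM was 5.78, 5.17, 5.41, 5.71 and 5.62 at ZT4, with ZT4 replicate 2 the lowest, and 5.96, 6.03, 6.21, 6.1 and 6.39 at ZT16.

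Along the pathway, Hmgcs1, which makes HMG-CoA, had 261, 148, 174, 231 and 211 CPM at ZT4 and 363, 431, 468, 430 and 457 CPM at ZT16 (log2 fold change -1.07 ± 0.14, adjusted p = 0.00415). Sqle, the squalene epoxidase, had 99.2, 57.2, 66.7, 80.4 and 84.6 CPM at ZT4 and 133, 157, 193, 171 and 178 CPM at ZT16 (log2 fold change -1.1 ± 0.14, adjusted p = 0.00415). In both genes the highest ZT4 library was replicate 1, and it stayed below the lowest ZT16 library. Lss (Entrez 16987), which closes squalene epoxide to lanosterol, changed most, with 22.8, 9.59, 14.3, 19.5 and 16.3 CPM at ZT4 and 34.9, 36, 44.8, 40.2 and 48.8 CPM at ZT16 (log2 fold change -1.31 ± 0.20, adjusted p = 0.00607), and Msmo1, which takes a methyl group off the sterol ring, was 2.07-fold higher at ZT16 (log2 fold change -1.05 ± 0.13, adjusted p = 0.00387). All 4 genes held in every fit.

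Fatty acid synthesis genes that passed were higher in early dark. Of 24 tested genes, 7 were higher at ZT16 and none at ZT4 (6 without ZT4 replicate 4, median -0.26). Srebf1, the regulator of lipogenic genes, had 74.7, 81.3, 74.5, 74.1 and 75.6 CPM at ZT4 and 102, 103, 116, 119 and 105 CPM at ZT16, all ZT4 libraries within 74.1 to 81.3 CPM (log2 fold change -0.52 ± 0.07, adjusted p = 0.00397). Srebf1 overlaps Rai1 on the genome, whose change did not pass (adjusted p = 0.323). Scd2, a fatty acid desaturase, was 2.22-fold higher at ZT16 (log2 fold change -1.15 ± 0.21, adjusted p = 0.0119), Elovl6, which lengthens palmitate, 1.64-fold (log2 fold change -0.72 ± 0.13, adjusted p = 0.0135), and Dgat2, which makes triglyceride, 2.04-fold (log2 fold change -1.03 ± 0.18, adjusted p = 0.0106). Dgat2 in ZT16 replicate 3 was 65.6 CPM, close to the ZT4 maximum of 63.9, while the other ZT16 libraries were above 100.

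Genes of fat oxidation and ketogenesis, targets of PPARα, moved both ways: 5 of 31 were higher at ZT4 and 4 at ZT16 (6 and 4 without ZT4 replicate 4). Acot1, a cytosolic acyl-CoA thioesterase induced by fasting, was low, with 4.44, 4.4, 3.94, 3.81 and 5.07 CPM at ZT4 and 1.59, 2.11, 1.26, 1.53 and 1.27 CPM at ZT16, and 2.79-fold higher at ZT4 (log2 fold change 1.48 ± 0.19, adjusted p = 0.00387). Its close paralogs may share reads. Slc25a20, the carnitine carrier of mitochondria, had 179, 180, 188, 155 and 172 CPM at ZT4 and 104, 91.2, 85.3, 119 and 126 CPM at ZT16 (log2 fold change 0.73 ± 0.11, adjusted p = 0.00612). On the other side, Creb3l3, a fasting-responsive factor of liver and gut, was 2.18-fold higher at ZT16 (log2 fold change -1.12 ± 0.19, adjusted p = 0.00862) and Ucp2, a mitochondrial carrier, 1.41-fold (log2 fold change -0.49 ± 0.08, adjusted p = 0.0088). Of 28 genes of insulin, mTOR and fasting response, 4 were higher at ZT4 and none at ZT16, and 0 to 4 were when each library was left out. Among them Fbxo32 (atrogin-1), a ubiquitin ligase of fasted muscle, had 193, 505, 295, 277 and 272 CPM at ZT4 and 165, 188, 137, 176 and 169 CPM at ZT16 (log2 fold change 0.89 ± 0.22, adjusted p = 0.0386, 4 of 10 fits). Of 30 autophagy and lysosome genes 4 were higher at ZT4 (1 to 4 when each library was left out), beside 3.07% of all tested genes. Among them were Ulk1, the kinase that starts autophagy (1.22-fold, adjusted p = 0.0205, 8 of 10 fits), and Wipi2 (1.22-fold, adjusted p = 0.0162, 9 of 10 fits).

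Glycolysis and hypoxia genes that passed with all 10 libraries were higher at ZT16. Of 20 glycolysis genes, 5 were higher at ZT16 and none at ZT4 (4 without ZT4 replicate 4). Pgam1, a mutase of lower glycolysis, had 55.5, 53.1, 51.7, 55.9 and 54.6 CPM at ZT4 and 70.6, 71.7, 74.8, 74.3 and 83.3 CPM at ZT16 (log2 fold change -0.47 ± 0.06, adjusted p = 0.00389), a small and even difference. Slc16a3 (MCT4), which exports lactate, was 1.94-fold higher (log2 fold change -0.96 ± 0.17, adjusted p = 0.0103). Its gene overlaps Csnk1d, which did not pass (adjusted p = 0.35). Of 24 genes of the hypoxia response, 7 were higher at ZT16 and none at ZT4, and 4 were without ZT4 replicate 4 (4 to 8 over all such fits, in which 0 to 2 were higher at ZT4). Vegfa, the angiogenic growth factor, had 96, 89.7, 103, 109 and 112 CPM at ZT4 and 158, 166, 154, 266 and 253 CPM at ZT16, with ZT16 replicates 4 and 5 far above the other 3 (log2 fold change -0.97 ± 0.17, adjusted p = 0.0094). P4ha1, which hydroxylates collagen, was 1.9-fold higher (log2 fold change -0.93 ± 0.14, adjusted p = 0.00562), and Hif1a 1.44-fold (log2 fold change -0.53 ± 0.10, adjusted p = 0.0139). Pfkfb4, a regulator of glycolytic flux on both lists, was 1.42-fold higher (log2 fold change -0.51 ± 0.10, adjusted p = 0.0143).

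The largest changes of all named genes, those of Slc37a2 and Nos2, were toward higher levels in early light. Slc37a2 (Entrez 56857, chr9:37229149-37255738), a sugar-phosphate transporter known from macrophages, had 101, 569, 29, 118 and 110 CPM at ZT4 and 5.06, 3.99, 4.38, 8.33 and 25.5 CPM at ZT16. The groups did not overlap, but ZT4 replicate 2 was far above the rest, and the 19.98-fold difference had a wide error (log2 fold change 4.32 ± 0.86, adjusted p = 0.0167), at 3.25 to 5.12 over the 10 fits. Nos2, the inducible nitric oxide synthase, had 34.2, 5.26, 118, 81.8 and 54.6 CPM at ZT4 and 3.04, 0.403, 1.18, 5.63 and 6.81 CPM at ZT16. ZT4 replicate 2 lay within the ZT16 range there, and the other ZT4 libraries were 34.2 CPM or more (log2 fold change 4.1 ± 0.85, adjusted p = 0.0193). Edn1, the vasoconstrictor endothelin-1, had 56.4, 123, 35.5, 63.6 and 55.3 CPM at ZT4 and 13.1, 9.5, 7.03, 12.9 and 13.3 CPM at ZT16, with clear separation (6.03-fold, log2 fold change 2.59 ± 0.32, adjusted p = 0.00387). Without ZT4 replicate 4 the 3 changes were 4.45, 3.95 and 2.61, and all passed.

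Of 31 tested NF-κB, cytokine and chemokine genes, 6 were higher at ZT4 and none at ZT16 (5 and 1 without ZT4 replicate 4). The count higher at ZT4 fell to 2 without ZT16 replicate 2, to 3 without ZT4 replicate 5 or ZT16 replicates 1, 3 or 4, and to 1 without both off-label libraries. Over all genes, the calls higher at ZT4 also fell in these fits, from 515 to between 230 and 333. Ccl20, the epithelial chemokine of CCR6-bearing lymphocytes, had 10.1, 30.3, 13.7, 26.9 and 17.4 CPM at ZT4 and 1.77, 1.79, 3.28, 3.96 and 7.05 CPM at ZT16 with no overlap (log2 fold change 2.47 ± 0.43, adjusted p = 0.0101). Nfkbia, the inhibitor that NF-κB induces to stop itself, had 98.3, 154, 85.9, 136 and 113 CPM at ZT4 and 62.5, 60.9, 58.2, 72.9 and 76.3 CPM at ZT16 (log2 fold change 0.83 ± 0.16, adjusted p = 0.0141). Both held in every fit. Tnf was low, with 3.36, 6.31, 1.39, 4.75 and 5.07 CPM at ZT4 and 1.57, 0.65, 1.26, 0.88 and 1.59 CPM at ZT16, and 3.54-fold higher at ZT4 (log2 fold change 1.82 ± 0.40, adjusted p = 0.0243, 6 of 10 fits). Nfkb2, a subunit of the non-canonical pathway, was 1.29-fold higher (log2 fold change 0.37 ± 0.08, adjusted p = 0.0227, 8 of 10 fits). With the B cell score as a covariate, 4 genes of the list were higher at ZT4 and 1 at ZT16, and the median fell from 0.34 to 0.04. Tnip3, which binds the NF-κB brake A20, had 27.7, 27, 30.4, 44.3 and 39.7 CPM at ZT4 and 6.13, 3.9, 4.73, 8.98 and 21.7 CPM at ZT16 (log2 fold change 1.9 ± 0.42, adjusted p = 0.0266, 4 of 10 fits), with ZT16 replicate 5 far above its group. Cxcl10, an interferon-induced chemokine at 5.11 CPM or less, was 2.31 ± 0.53 (adjusted p = 0.0304, 4 of 10 fits), and of 36 interferon-stimulated genes 2 were higher at ZT4 and 1 at ZT16. Tlr2, a receptor of bacterial lipoproteins, was 2.05-fold higher at ZT4 (log2 fold change 1.04 ± 0.25, adjusted p = 0.0366) but only in 1 of 10 fits and not without ZT4 replicate 4 (adjusted p = 0.0631). None of 22 epithelial antimicrobial genes passed edgeR's test (2 higher at ZT4 and 3 at ZT16 had an unadjusted p under 0.05) or that of DESeq2.

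Of 23 tested oxidant enzyme and redox defence genes, 3 were higher at ZT4 and 3 at ZT16 (2 and 3 without ZT4 replicate 4). Beside Nos2, Noxo1, an organiser of the epithelial NADPH oxidase, had 101, 97.9, 95.9, 102 and 97.6 CPM at ZT4 and 75.9, 63.3, 59.2, 73.4 and 87.4 CPM at ZT16 (log2 fold change 0.46 ± 0.10, adjusted p = 0.0215, 8 of 10 fits), and Duoxa2, the maturation factor of the hydrogen peroxide source DUOX2, was 3.14-fold higher at ZT4 (log2 fold change 1.65 ± 0.44, adjusted p = 0.0488), a call that held in 2 of 10 fits and not without ZT4 replicate 4 (adjusted p = 0.0787). The scavenger gene Sod2, for mitochondrial superoxide dismutase, had 86.6, 83.1, 88.8, 86.8 and 94.2 CPM at ZT4 and 104, 111, 110, 119 and 124 CPM at ZT16, higher at ZT16 (log2 fold change -0.37 ± 0.06, adjusted p = 0.00989), as was Gclm of glutathione synthesis (log2 fold change -0.52 ± 0.11, adjusted p = 0.0249, 8 of 10 fits).

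Hormone and temperature-responsive genes were counted next. Of 21 glucocorticoid-induced genes, 3 were higher at ZT4 and 2 at ZT16 (4 and 1 without ZT4 replicate 4). Mt2, a metallothionein that also answers zinc, had 59, 134, 57.7, 52.4 and 28.9 CPM at ZT4 and 12.8, 7.06, 6.73, 12.7 and 21.1 CPM at ZT16 (log2 fold change 2.47 ± 0.43, adjusted p = 0.0103), and Tat, tyrosine aminotransferase, had 46.8, 58.9, 49.3, 54.1 and 41.7 CPM at ZT4 and 22.9, 16.9, 10.1, 21.8 and 25.2 CPM at ZT16 (log2 fold change 1.38 ± 0.22, adjusted p = 0.00655). Neither gene overlapped between times. Errfi1, a feedback inhibitor of EGF receptor signalling, was 1.51-fold higher at ZT16 (log2 fold change -0.59 ± 0.15, adjusted p = 0.0443, 2 of 10 fits). Cirbp, a cold-inducible RNA-binding protein that rises as body temperature falls, had 93.3, 101, 78.3, 58.7 and 64.6 CPM at ZT4 and 37.9, 26.1, 28.2, 43.1 and 36 CPM at ZT16. All ZT4 values were above all ZT16 values (2.32-fold, log2 fold change 1.21 ± 0.18, adjusted p = 0.00612), and it was the 1 of 5 cold-inducible genes that passed. Of 37 immediate early genes, 3 were higher at ZT16 and 1 at ZT4, beside 3.04% and 3.07% of all tested genes. Between 0 and 6 were higher at ZT16 when each library was left out.

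**Figure D4:**
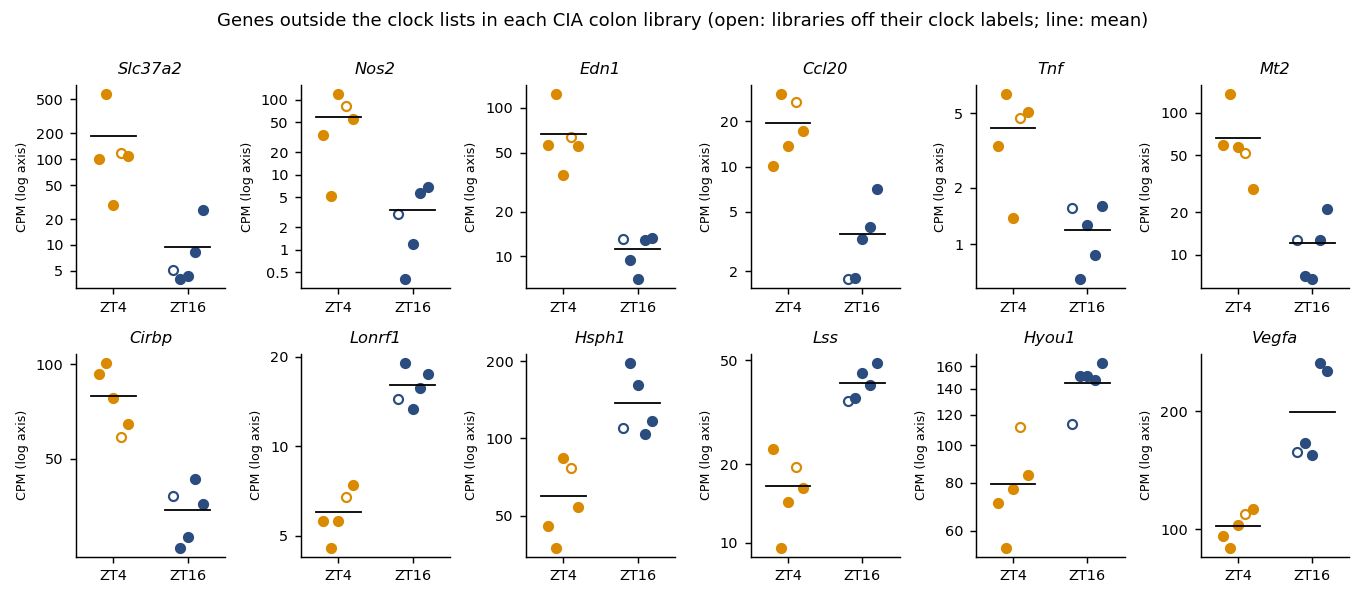
CPM (log axis) of 12 genes outside the clock lists in each library; each point is 1 mouse, open points are ZT4 replicate 4 and ZT16 replicate 1, and lines are group means. ZT4 replicate 2 is the highest for Slc37a2 (569 CPM) and Mt2 (134 CPM) but the lowest ZT4 library for Nos2 (5.26 CPM).

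Other genes with large changes belonged to no list, or to a list with few calls. Bco2, which cleaves carotenoids, had 27.6, 64.2, 22.3, 29 and 25.8 CPM at ZT4 and 8.35, 6.03, 6.82, 9.14 and 7.69 CPM at ZT16 (log2 fold change 2.16 ± 0.29, adjusted p = 0.00418). Its span overlaps that of Il18, an epithelial cytokine of the NF-κB list, named after its values were seen, which was also higher at ZT4 (log2 fold change 1.54 ± 0.36, adjusted p = 0.0307, 4 of 10 fits), and reads of the 2 cannot be told apart with certainty. Sectm1a, a secreted ligand of T cells, was 3.06-fold higher at ZT4 (log2 fold change 1.62 ± 0.23, adjusted p = 0.00506). Higher at ZT16 were Rfx2, a factor of ciliary genes, with 9.61, 8.13, 16.9, 18.4 and 8.73 CPM at ZT4 and 35.5, 51.2, 30.2, 47.4 and 39.3 CPM at ZT16 (log2 fold change -1.73 ± 0.25, adjusted p = 0.00506), Cys1, a protein of the primary cilium (2.57-fold, log2 fold change -1.36 ± 0.22, adjusted p = 0.00762), and Lonrf1, a RING-finger protein, with 5.6, 4.57, 5.63, 6.74 and 7.44 CPM at ZT4 and 14.4, 19.1, 13.3, 15.7 and 17.5 CPM at ZT16 (log2 fold change -1.41 ± 0.15, adjusted p = 0.00214). None of these 3 overlapped between the times. Sfn (14-3-3σ), an epithelial cell cycle checkpoint protein, was 2.23-fold higher at ZT16 (log2 fold change -1.16 ± 0.19, adjusted p = 0.00762), and Clca4a, of the chloride channel accessory family and with a close copy that may share reads, 2.41-fold (log2 fold change -1.27 ± 0.30, adjusted p = 0.0342, 3 of 10 fits).

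Most barrier and transport lists held few calls with all 10 libraries, beside 3.07% of all tested genes higher at ZT4 and 3.04% higher at ZT16. Of 30 tight junction genes, 1 was higher at ZT4 and none at ZT16, and that was Cldn8, a claudin of the distal colon, with 90.05, 125, 63.3, 89.4 and 89.2 CPM at ZT4 and 17.3, 33.9, 22.1, 45.1 and 56.6 CPM at ZT16 (log2 fold change 1.39 ± 0.31, adjusted p = 0.0252, 6 of 10 fits). With smooth muscle level as a covariate, 5 tight junction genes were higher at ZT4 and 2 at ZT16, against 867 and 938 of all genes. With library size alone 4 and none were, against 652 and 384 of all genes. Of 37 genes of sodium, chloride and proton transport 2 were higher at ZT16, and of 58 nuclear-encoded respiratory chain genes 1 was. Of 44 xenobiotic genes 4 were higher at ZT16 and 1 at ZT4, a larger share than over all genes. Between 1 and 4 of them were higher at ZT16 when each library was left out. Of 27 genes of the intestinal IgA network, Ccl28 alone passed, which is also on the NF-κB list, an epithelial chemokine of IgA-secreting cells, with 148, 184, 101, 156 and 157 CPM at ZT4 and 59.9, 57.4, 68.4, 101 and 116 CPM at ZT16 (log2 fold change 0.90 ± 0.22, adjusted p = 0.0394). Its call held in 2 of 10 fits and was lost without ZT4 replicate 4 (adjusted p = 0.0613).

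**Figure D5:**
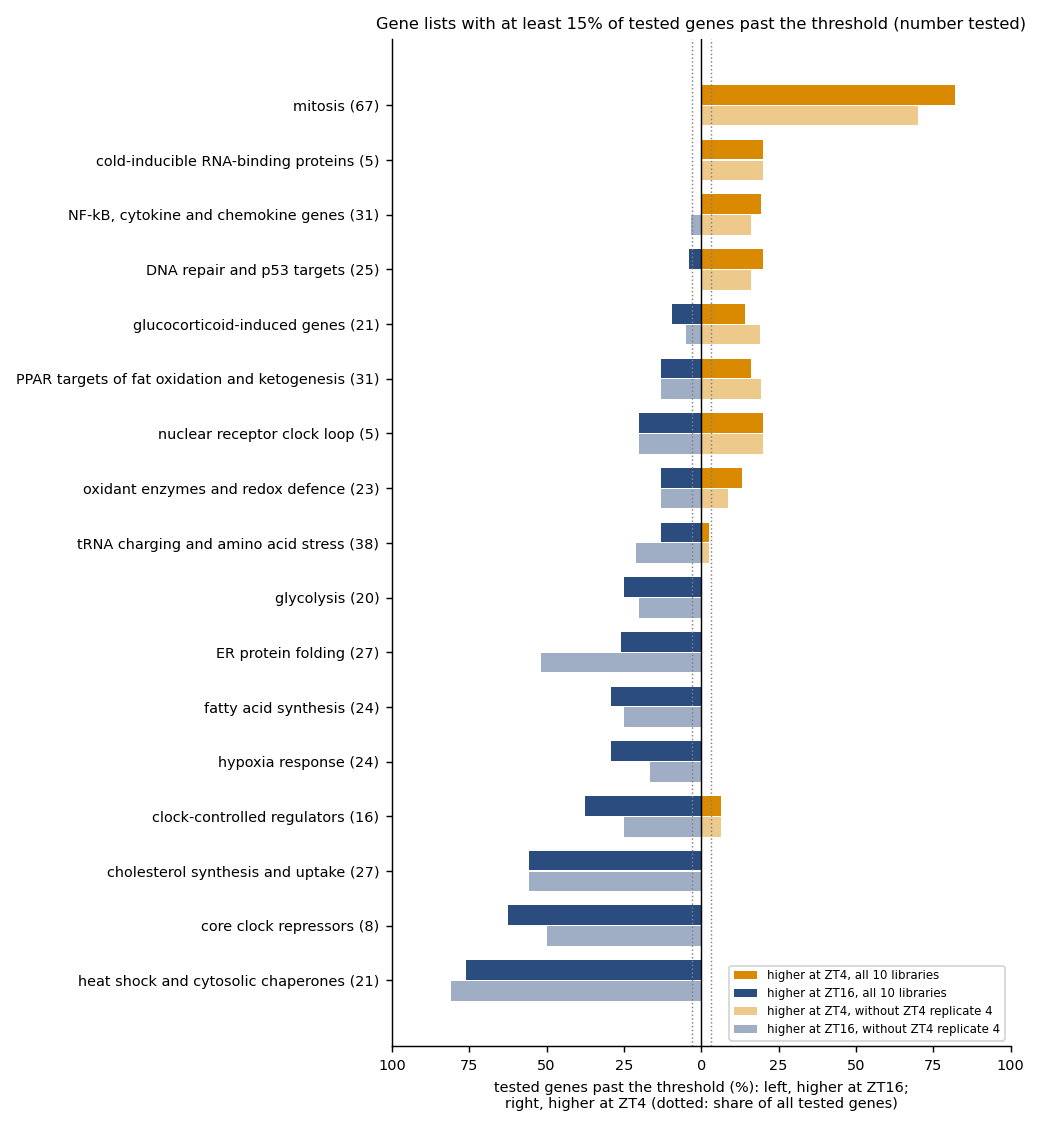
Share of tested genes (%) past the threshold in the lists with at least 15% of members called, to the right for genes higher at ZT4 and to the left for genes higher at ZT16, with the number tested in parentheses; full bars use all 10 libraries, pale bars leave out ZT4 replicate 4, and dotted lines mark the shares of all genes (3.07% and 3.04%). Mitosis (55 of 67) reaches farthest right, and heat shock and cytosolic chaperones (16 of 21) farthest left. Core clock activators (1 of 4 called) and clock output factors (1 of 3) also met the 15% share but are not drawn, because few of their genes were tested.

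Markers of the cell types in the wall were read to see what else differed between the libraries. Colonocyte markers were abundant in every library, summing to 22054 to 26048 CPM at ZT4 and 24372 to 34302 CPM at ZT16 over 18 genes, and 2 of them were higher at ZT16: Vil1 (villin), of the brush border, with 545, 533, 516, 574 and 606 CPM at ZT4 and 904, 772, 705, 883 and 886 CPM at ZT16 (log2 fold change -0.58 ± 0.09, adjusted p = 0.00721), and Krt19 (1.39-fold, log2 fold change -0.47 ± 0.12, adjusted p = 0.0481), whose call held in 1 of 10 fits and not without ZT4 replicate 4 (adjusted p = 0.0711). No gene of the smooth muscle list (26 tested, summed 24862 to 60104 CPM at ZT4 and 17732 to 41066 CPM at ZT16) and none of the 18 B cell genes passed edgeR's test. At an unadjusted p under 0.05, 1 smooth muscle gene and 4 B cell genes were higher at ZT4 and 1 B cell gene at ZT16, and DESeq2 called none of the former and 1 of the latter list. B cell markers nevertheless had a median change of 1.55, with list means of 3.62, 5.75, 1.47, 4.06 and 4.66 log2 CPM at ZT4 and 3.04, 1.13, 2.72, 2.22 and 4.35 at ZT16, so they varied over 4 units among mice of 1 time and overlapped between times. Summed B cell markers ran from 168 to 1162 CPM at ZT4 and from 186 to 543 CPM at ZT16, and none was at 0 in all libraries.

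With the B cell score as a covariate, a choice made after the values were seen, 43 of the 67 mitotic genes were higher at ZT4 with a median of 1.2, the heat shock and chaperone count stayed at 16 and the cholesterol count at 15. A covariate for smooth muscle level gave 57, 16 and 17 for the same lists. What part cell composition has in these differences was not tested beyond these fits. Of the other cell types, 1 of 12 glial genes, Erbb3, a neuregulin receptor that epithelium also makes, was higher at ZT4 (1.6-fold, log2 fold change 0.68 ± 0.09, adjusted p = 0.00404). Of 8 mesothelial genes 1, again Krt19, was higher at ZT16. No gene passed on the lists of plasma cells, macrophages, dendritic cells, granulocytes and mast cells, fibroblasts, endothelium, neurons, interstitial cells of Cajal, enteroendocrine, tuft or goblet cells, adipocytes, erythrocytes or skeletal muscle. On these lists 0 to 3 genes had an unadjusted p under 0.05, or 5 for goblet cells, and DESeq2 called 1 gene each for goblet cells, macrophages, interstitial cells of Cajal and skeletal muscle. Without ZT4 replicate 4, 2 plasma cell genes, 2 goblet cell genes and 1 macrophage gene were higher at ZT16. Lists without a call could still vary among libraries. Goblet cell list means ran from 5.69 to 7.65 log2 CPM at ZT4 and from 7.28 to 7.59 at ZT16. Adipocyte means ran from 0.97 to 4.69 at ZT4 and from -0.037 to 4.77 at ZT16. Changes were negative for 18 goblet cell genes and positive for 2, and negative for 11 plasma cell genes and positive for 3. ZT4 replicate 1 alone had raised pancreas and liver transcripts (mean log2 CPM of 3.25 over 4 tested genes, against -1.26 to 0.16 in the other 9 libraries), and 4 of the 11 markers listed were at 0 in all libraries.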

How the data were processed

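RNA of mid-colon was sequenced, 1 library per mouse. The authors deposited raw read counts per Entrez gene, made, per the study's methods and the submitters' processing notes, with bcl2fastq 2.17.1.14, Trimmomatic 0.36, STAR 2.5.3 on GRCm38 (mm10) and Rsubread. The strand setting is not given in the sources used here. Small counts were mostly even numbers (74.3% of those at 1 to 20 and 50.5% of those over 1000), so halved counts were also tested. The table held 27179 genes and 60 libraries, of which 10 were used. Genes without a symbol (1904) held 0.541% of counts and were tested too.

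Counts were filtered with filterByExpr (minimum count 10, minimum total 15), scaled by TMM and fitted by edgeR 4.0.16 in R 4.3.3 (quasi-likelihood test, legacy dispersion), with Benjamini-Hochberg adjustment over all tested genes and a threshold of 0.05. CPM use TMM library sizes, and log2 CPM a prior count of 2. The SE is the log2 fold change over the square root of F. The test was also run on counts simulated as independent libraries with the dispersions of these data. That simulation held no off-label library and no shift of cell composition, so it says nothing about either. Nothing in the labels beyond 1 mouse per library describes cages or litters.

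Named genes were the 15 largest changes in each direction past the threshold at a mean of at least 10 CPM, all tested core clock genes, and up to 4 passing members of each list with the smallest adjusted p; overlap partners and genes said to be chosen later are additions, and some items are not reported here. Members and the 64 lists were chosen with earlier results of these data known. Of 1561 list entries, 1546 were in the table. Promoters are from RefSeq (GRCm38.p6).

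Alternatives were other scalings, filters and thresholds, DESeq2 1.42.0, limma 3.58.1 voom, a smooth muscle covariate, all 30 CIA libraries, a replicate block, halved counts and leaving out each library. Leaving out both off-label libraries and a B cell covariate were chosen after seeing the data.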

Additional observations from a re-analysis of the deposited data

Results flagged for a closer look

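In a group of 5 libraries, 1 library's gap to its nearest neighbour exceeded Dixon's 95% critical value of 0.71 of the range for 17 of 306 values tested, and chance alone gives about 1 in 20. ZT4 replicate 2 stood above its group for Slc37a2 (569 CPM), Mt2 (134 CPM), Bco2 (64.2 CPM) and Srebf1 (81.3 CPM). The same library stood below its group for Sar1b (21.8 CPM), Yars (65.5 CPM) and Elovl6 (59.2 CPM) and for the mean log2 CPM of oxidant enzyme and redox defence genes (6.1). ZT4 replicate 4 was apart for Arntl (71.1 CPM) and ZT4 replicate 1 for Birc5 (59.5 CPM). At ZT16, replicate 1 was apart for Dbp (41.7 CPM), Psmd12 (58.9 CPM) and Cited2 (57.8 CPM), replicate 3 for Dgat2 (65.6 CPM) and for the mean log2 CPM of tRNA charging genes (5.19), and replicate 5 for Slc37a2 (25.5 CPM) and Tnip3 (21.7 CPM).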

How the results depend on the processing

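Calls depended on the test and on single libraries more than directions did, though the direction of a called gene could hardly turn in fits that share most libraries. Against 515 genes higher at ZT4 and 511 higher at ZT16, a smooth muscle covariate gave 867 and 938, DESeq2 gave 1053 and 988, limma voom gave 1068 and 943, and all 30 CIA libraries in 1 fit gave 812 and 848. An adjusted p under 0.01 left 112 and 97. Leaving out each library gave 230 to 539 higher at ZT4 and 197 to 576 higher at ZT16, and leaving out both off-label libraries gave 290 and 397, a share of 42.2% on the ZT4 side against 50.2% with all 10. The cause of these differences was not tested. With replicate number as a block, 175 and 183 genes passed, 345 of them shared with the fit without it; same-numbered libraries correlated at -0.318 to 0.208 in their deviations and 1 of 5 correlated best with its own number, so the numbers were not taken as pairs. Directions turned for genes that had not passed with all 10 libraries. Nr1d2 ran from -0.18 to 0.15, Rora from -0.44 to 0.068 and Dbp from -0.41 to 0.57 when each library was left out. Without both off-label libraries they were 0.33, 0.25 and 0.83. With a B cell covariate Rora was 0.28 and Nfil3 0.068. The median of the nuclear receptor loop was 0.055 without ZT4 replicate 4. With counts halved, 536 genes were higher at ZT4 and 543 at ZT16.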
